A study of Oryza sativa Japonica Group with 10 samples.

Results

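The genes described here are 150 rice genes whose array signal was lower after 24 h in low phosphate than in every other group of a time course. They were picked from 17905 genes that the array's annotation ties to a probe set of their own, a probe set being the group of short probes that measures 1 transcript. Where a gene had several such probe sets, the brightest was used. A trough score was taken for each gene as the lowest log2 signal of the 8 arrays outside 24 h minus the higher of the 2 log2 signals at 24 h. A score of 1 therefore means that each of the 8 other arrays was at least 2-fold above both arrays of 24 h. Genes were kept when those 8 signals were all at least 200, which left 11074, and 2194 of these had a score above 0. The 150 highest scores were taken after leaving out, by name, the clock genes GI, OsPCL1 and the OsPRR family, the light-regulated gene LIR1 and the catalase gene CAT-A.

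The samples were whole one-week-old seedlings of the japonica rice cultivar Zhonghua 10. There were 5 groups of 2 arrays each, 10 arrays in all: a control with sufficient phosphate, and seedlings kept in low phosphate for 6, 24, 48 and 72 h. No plants kept in sufficient phosphate up to the later times were analysed here, and the hour at which the control was taken was not stated in the labels. Low phosphate, seedling age and time of day cannot be told apart in any comparison with the control. Both arrays of each group are labelled as biological replicates, and every p-value here rests on the spread between such pairs.

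Many plant genes rise and fall once a day. Light and the circadian clock, a loop of transcription factors that repress each other in turn, set the hour at which each is high, and genes for photosynthesis, sugar use and stress protection are among those that cycle in leaves. A lack of phosphate works through another system, in which PHR transcription factors switch on phosphate transporters, phosphatases and SPX-domain proteins as the inner phosphate pool runs down. A gene can answer to both, and a whole seedling sums leaf, root and the rest of the seed. A lower signal from whole seedlings does not tell fewer cells of a type from less RNA in each cell.

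The authors had scaled every array to one trimmed mean, and array medians lay between 47.4 and 54.0, except at 72 h, where they were 69.2 and 68.4. Pearson correlations of log2 signals were 0.910 to 0.938 for the 5 pairs within a group and 0.881 to 0.921 for the 40 pairs between groups. The ratio of 3′ to 5′ probe sets of one transcript rises when RNA or labelled copies are short. For rice actin the log2 ratio was 2.06 and 2.02 in the control, 3.23 and 3.68 at 6 h, 2.00 and 1.73 at 24 h, 2.54 and 2.30 at 48 h, and 5.34 and 6.86 at 72 h. For the bacterial control transcript dap it was 1.52 and 1.43 in the control, 2.32 and 3.04 at 6 h, 1.33 and 1.29 at 24 h, 1.36 and 1.42 at 48 h, and 4.88 and 5.74 at 72 h. The 24 h arrays were thus at the low end of both ratios and the 72 h arrays at the high end, and the part of this in the results below was not tested.

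Tissue markers were summed beside the trough genes, since seedlings can differ in their share of leaf, root and seed. The 7 leaf and chloroplast markers summed to 44506 and 44487 at 24 h and to between 45401 and 79777 on the other 8 arrays. CAB2R, itself a trough gene, is 1 of these 7 and carried that difference. Without it, a sum taken after the values were seen, the other 6 read 40493 and 40449 at 24 h, above the control (33140 and 33198), 48 h (34380 and 34097) and 72 h (26637 and 26210.0) and below 6 h (47790 and 47565). On both arrays of 24 h, 2 of the 7 were below all 8 other arrays and 3 were above all 8. The 6 root markers summed to 16905 and 16503 at 24 h, below their range of 24787 to 37706 elsewhere, with 1 of them below all 8 other arrays and 1 above. Without OsNIP2;1, the largest of them, the sum was 7799 and 8023 at 24 h, inside the range of 5339 to 12052 elsewhere. The 9 seed and endosperm markers summed to 3836 and 3663 at 24 h, inside the range of 3652 to 8211 elsewhere, and 3 of the 9 were under a signal of 50 on all arrays. Without GLUA-2, the largest of these, the sum was 2067 and 1880 at 24 h against 2284 to 5725 elsewhere. The median log2 difference of 24 h from the control was 0.40 over the leaf list, 0.40 over the root list and -0.44 over the seed list. Each sum thus hung on 1 marker, and the part of tissue shares in the trough was not tested.

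The trough itself is what chose these genes, so its size is a description and carries no test. The median signal of the 150 genes was 2790 and 2739 on the 2 control arrays, 2616 and 2508 at 6 h, 460.2 and 453 at 24 h, 2584 and 2510 at 48 h, and 2230 and 2211 at 72 h. In these medians the 24 h arrays stood alone and the other 4 groups lay close together. Single genes were less level, and the means of those 4 groups spanned more than 1 on the log2 scale in 47 genes. Relative to 24 h, the median gene was 5.55-fold higher in the control, 4.80-fold at 6 h, 4.75-fold at 48 h and 4.45-fold at 72 h. On the log2 scale the median difference of 24 h from the control was -2.47, with a range from -7.38 to -1.23, against 0.02 over the 11074 genes that met the signal floor. Of the 150 genes, 44 scored above 2, 14 above 3 and 2 above 5. The 2 arrays of 24 h differed by a median of 0.12 on the log2 scale over these genes, and by less than 0.5 in 128 of them. At 24 h, 13 genes read under 100 on both arrays, where MAS5 signals are noisy, and 42 still read over 1000 on both.

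**Figure D1:**
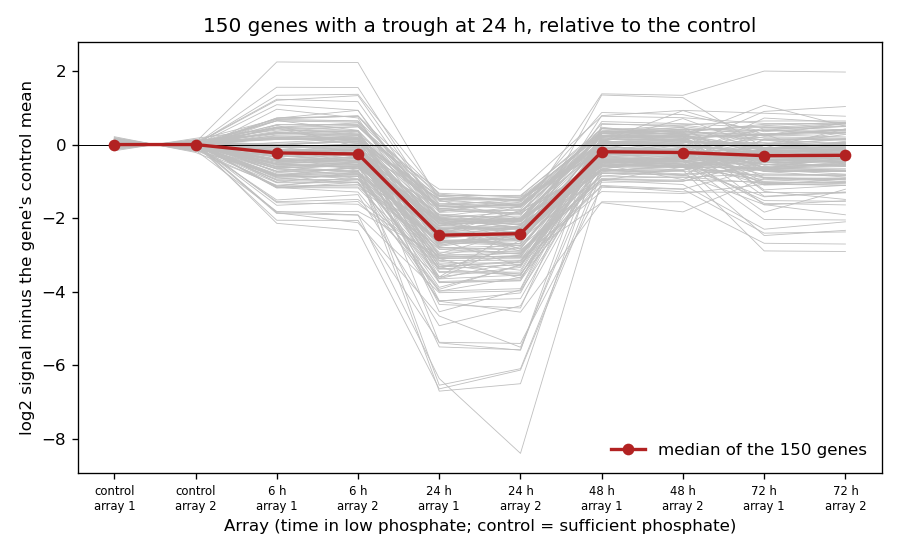
Log2 signal of each of the 150 trough genes on each array, minus that gene's control mean (thin lines), with the median over the genes in red. The median sits near 0 on the control arrays. By group means it is -0.25 at 6 h, -0.19 at 48 h and -0.31 at 72 h, against -2.47 at 24 h.

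The same score was computed with each group in turn as the low one, with the names above left out, to describe how common such dips were. A score above 1 was reached by 202 genes with 24 h as the low group, 63 with the control, 18 with 6 h, 5 with 48 h and 49 with 72 h. A score above 2 was reached by 44, 10, 1, 0 and 6 genes in that order of groups. The gene in place 150 scored 1.17 for 24 h and between 0.26 and 0.71 for the others. Outside 24 h, the control was the highest group for 71 of the 150 genes, 6 h for 34, 48 h for 28 and 72 h for 17.

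Of the 150 genes, 21 have a published name in the gene table, and the other 129 are given by their gene identifier, with no role attached. The highest score, 5.39, belonged to LOC4346629. It read 6381 and 6317 in the control, 8576 and 7744 at 6 h, 151 and 131 at 24 h, 9295 and 9167 at 48 h, and 7686 and 8416 at 72 h. Taken off the log scale, the score means that each of the 8 other arrays was at least 41.9-fold above both arrays of 24 h. LOC4332570, with a score of 5.36, read 5039 and 5152 in the control, 3065 and 3657 at 6 h, 54.5 and 74.4 at 24 h, 3389 and 3353 at 48 h, and 3635 and 4089 at 72 h. In both genes the 24 h arrays lay far below all others. The control lay below 6, 48 and 72 h for LOC4346629 and above them for LOC4332570, by much less.

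The deepest fall against the control was that of LOC4324218, which stood 167-fold higher in the control than at 24 h. Its 24 h signals, 16.4 and 4, were too dim for that fold to be precise, and they were the pair of 24 h arrays furthest apart among the 150 genes, at 2.04 on the log2 scale. In the other groups it read 1503 and 1217 in the control, 383 and 359 at 6 h, 688 and 637 at 48 h, and 274 and 315 at 72 h, so it was also uneven outside the trough. LOC4327073 was similar, with 1075 and 880.2 in the control, 542 and 599 at 6 h, 9.3 and 10.7 at 24 h, 972 and 797 at 48 h, and 272 and 419 at 72 h. These were the 2 lowest genes at 24 h relative to the control. The other unnamed genes among the 10 highest scores were LOC4346790, LOC4345863, LOC4339629 and LOC4339475, with scores of 3.86, 3.66, 3.23 and 3.23. LOC4346790 is a case of a bright gene with an uneven course, at 11670.2 and 11980.2 in the control, 6425 and 6532 at 6 h, 260.3 and 247 at 24 h, 12063 and 11764 at 48 h, and 3789.9 and 4094 at 72 h. LOC4339475 was nearly level outside the trough, at 16458 and 16297 in the control, 14744 and 14592 at 6 h, 1301 and 1397 at 24 h, 13466 and 13069 at 48 h, and 14584 and 15046 at 72 h.

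Differences among the control, 6 h, 48 h and 72 h were tested with limma in a fit to those 8 arrays alone, so that no 24 h value entered. The rule did use the lowest of the 8 signals, and so kept out genes with a very low group among them. Values below are log2 differences ± SE with 2 arrays per group, and a gene is said to rise or fall where the Benjamini-Hochberg adjusted p over all 34355 probe sets tested was under 0.05.

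Several named genes belong to the chloroplast. OsCDSP32 encodes a thioredoxin-like protein of the plastid that acts in stress protection, and had the highest score of the named genes, 3.59. It read 2509.7 and 2251 in the control, 3314 and 3092 at 6 h, 176 and 182 at 24 h, 2971 and 3275 at 48 h, and 2182 and 2485 at 72 h. Every array outside 24 h was at least 12-fold above those of 24 h, and among them the gene rose by 0.43 ± 0.08 at 6 h (adjusted p = 0.00187) and by 0.39 ± 0.08 at 48 h (adjusted p = 0.00398). CAB2R, a chlorophyll a/b-binding protein that gathers light for the photosystems, read 37178 and 37972 in the control, 31986 and 32167 at 6 h, 4012 and 4038 at 24 h, 28186 and 25250.5 at 48 h, and 18764 and 19920.4 at 72 h. Outside the trough CAB2R fell step by step in all 5 comparisons, ending 0.96 ± 0.05 below the control at 72 h (adjusted p = 1.84e-07). OsPPT2, a plastid transporter that exchanges phosphoenolpyruvate for phosphate, read 2779.9 and 3058 in the control, 4044 and 4385 at 6 h, 678 and 678 at 24 h, 2952 and 3121 at 48 h, and 2739.9 and 2756 at 72 h. OsPPT2 rose at 6 h (0.53 ± 0.06, adjusted p = 7.31e-05), while its differences from the control at 48 and 72 h, 0.06 ± 0.06 and -0.09 ± 0.06, were not called.

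OsBBD1, a nuclease, had the most uneven course of the named genes. It read 5085 and 5425 in the control, 1189 and 1038 at 6 h, 52.4 and 74.7 at 24 h, 3044 and 3232 at 48 h, and 707 and 699 at 72 h. The trough was thus the lowest point of a course that was also low at 6 h and 72 h and high in the control and at 48 h. OsBBD1 was below the control by a log2 difference of -2.24 ± 0.08 for 6 h (adjusted p = 9.0e-09) and -2.90 ± 0.08 for 72 h (adjusted p = 2.59e-09).

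Signalling proteins form another group. OsCIPK10 is a protein kinase of the family that calcineurin B-like calcium sensors switch on. It read 6831 and 6874 in the control, 3017 and 3369.6 at 6 h, 433 and 452 at 24 h, 8749.9 and 8706 at 48 h, and 2832 and 2434 at 72 h, with 6 h and 72 h again below the control and 48 h. OsITPK3, a kinase that adds phosphate to inositol phosphates, read 17524 and 17681 in the control, 7908 and 7919 at 6 h, 2444 and 2226 at 24 h, 9299 and 9558 at 48 h, and 8488 and 8565 at 72 h. All low-phosphate times were below the control for OsITPK3, with log2 differences of -1.15 ± 0.04 for 6 h, -0.90 ± 0.04 for 48 h and -1.05 ± 0.04 for 72 h that all passed the test. OsPP2C11, a phosphatase of the type 2C class that includes the brakes on abscisic acid signalling, read 3977 and 4443 in the control and 551 and 562 at 24 h. OsPP2C11 lay between 2415 and 2986 on the arrays of 6 h, 48 h and 72 h, and fell in each of those groups against the control. XBOS31, a ubiquitin ligase with ankyrin repeats and a RING finger, read 2590.0 and 2459 in the control, 1247 and 1247 at 6 h, 164 and 262 at 24 h, 1153 and 1034 at 48 h, and 1021 and 1017 at 72 h. The fall of XBOS31 against the control passed the test at all 3 times. OsTLP3, a tubby-like protein, read 5228 and 5012 in the control, 2903 and 2685 at 6 h, 799 and 910.1 at 24 h, 4576 and 4338 at 48 h, and 2893 and 2892 at 72 h. It too was lower at 6 h and 72 h than in the control, by -0.87 ± 0.06 and -0.82 ± 0.06, and higher at 48 h than at 6 h by 0.67 ± 0.06, all past the test.

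Among the other named trough genes some act on genes and RNA. OsC3H37 and OsC3H35 carry CCCH zinc fingers, OsMYB2 a MYB domain, and OsbZIP50 is the transcription factor of the endoplasmic reticulum stress response whose mRNA is spliced by IRE1. OsC3H37 read 7869.7 and 8139.9 in the control, 3560.2 and 3267 at 6 h, 504 and 654 at 24 h, 4139 and 4023 at 48 h, and 5725 and 5737 at 72 h, and fell at all 3 other low-phosphate times against the control. OsC3H35 read 3293 and 3366 in the control, 3336 and 3510.3 at 6 h, 1186 and 1034 at 24 h, 4482 and 4212 at 48 h, and 4876 and 5010.2 at 72 h, and rose at 48 h and 72 h. OsMYB2 read 428 and 438 in the control, 429 and 475 at 6 h, 112 and 136 at 24 h, 498 and 582 at 48 h, and 565 and 644 at 72 h, and its rise of 0.48 ± 0.12 at 72 h passed the test (adjusted p = 0.0105). Against the control the CCCH pair thus went opposite ways at 48 h and 72 h, while both rose from 6 h to 48 h and from 48 h to 72 h. OsbZIP50 read 2597 and 2709.8 in the control, 2663 and 2497 at 6 h, 666 and 639 at 24 h, 1729 and 1732 at 48 h, and 2415 and 2513 at 72 h. It fell at 48 h against the control (-0.62 ± 0.06, adjusted p = 1.92e-05) and differed by -0.04 ± 0.06 at 6 h and -0.11 ± 0.06 at 72 h. In RNA silencing, OsAGO2, an Argonaute protein that cuts RNA guided by small RNAs, read 2185 and 2387 in the control, 1563 and 1511 at 6 h, 547 and 506 at 24 h, 1360.5 and 1398 at 48 h, and 2267 and 2287 at 72 h. DRB4, which binds double-stranded RNA, read 1895 and 1785 in the control, 2678 and 2655 at 6 h, 721 and 636 at 24 h, 2349.9 and 2386 at 48 h, and 2005 and 2042 at 72 h. DRB4 rose at 6 h (0.54 ± 0.06) while OsAGO2 fell (-0.57 ± 0.06), with adjusted p of 2.69e-05 and 4.44e-05.

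Both chaperones among the named genes were highest at 6 h. OsBiP1, the HSP70 chaperone of the endoplasmic reticulum, read 4008 and 3993 in the control, 10125 and 10318 at 6 h, 1537 and 1513 at 24 h, 5423 and 5319 at 48 h, and 5243 and 5038 at 72 h. Its rise at 6 h was 1.35 ± 0.04 (adjusted p = 5.2e-09). The probe set for OsHsp18.0, a small heat shock protein, read 5585 and 5594 in the control, 9172 and 9615 at 6 h, 1621 and 1534 at 24 h, 3730.3 and 3757 at 48 h, and 4152 and 4155 at 72 h. This probe set rose at 6 h and fell at 48 h and 72 h against the control. The other probe sets for OsHsp18.0 did not have the trough, as given with the further probe sets.

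Cell wall and carbon genes made up the rest of the named members. Adh2, the alcohol dehydrogenase that makes ethanol when oxygen is short, read 3439.7 and 3542 in the control, 8201 and 7834 at 6 h, 894 and 905 at 24 h, 9083 and 8835 at 48 h, and 13953 and 13696 at 72 h. Outside the trough Adh2 rose in every one of the 5 comparisons, by 1.99 ± 0.04 at 72 h against the control (adjusted p = 5.85e-10). OsPMEI28, an inhibitor of the enzymes that strip methyl groups from pectin, read 5432 and 5295 in the control, 6734 and 6958 at 6 h, 785 and 969 at 24 h, 8270.5 and 7948 at 48 h, and 7382 and 7983 at 72 h, and rose at 6 h, 48 h and 72 h. OsCIN7, a cell-wall invertase that splits sucrose, read 1712 and 1737 in the control, 1701 and 1666 at 6 h, 296 and 338 at 24 h, 1561 and 1494 at 48 h, and 1179.9 and 1156 at 72 h. OsCslE1, a cellulose synthase-like protein, read 2557 and 2743 in the control, 2622 and 2518 at 6 h, 505 and 457 at 24 h, 2826 and 2694 at 48 h, and 2180.0 and 1832 at 72 h. OsCIN7 and OsCslE1 were near their control level at 6 h and 48 h and fell at 72 h, by -0.56 ± 0.06 and -0.41 ± 0.08.

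**Figure D2:**
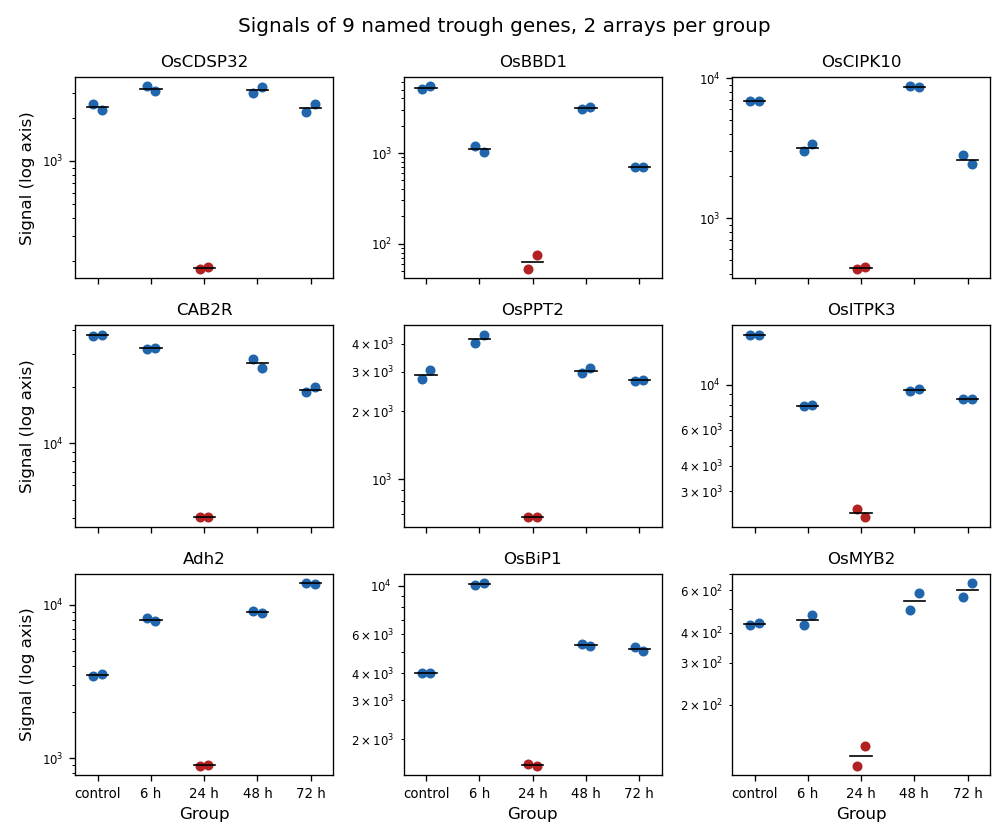
Signals (log axis) of 9 of the 21 named trough genes in each group; dots are single arrays, red at 24 h, and lines are means of 2 arrays on the log2 scale. OsBBD1 and OsCIPK10 are also low at 6 h and 72 h, OsBiP1 peaks at 6 h at 10125 and 10318, and Adh2 reaches 13953 and 13696 at 72 h.

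Gene lists by function show which kinds of named gene the 150 hold. The shares below are of genes that met the signal floor, of which 1.35% are trough genes over all genes and 1.26% (21 of 1662) over those with a published name. Transcription factors held 4 trough genes of 122 (OsC3H35, OsC3H37, OsMYB2 and OsbZIP50) and heat shock proteins and chaperones 2 of 43 (OsBiP1 and OsHsp18.0). Photosynthesis held 1 of 16, starch and sugar metabolism 1 of 35, abscisic acid, cold and drought 1 of 62, calcium and kinase signalling 1 of 61, and plastid and RNA processing 1 of 4. The lists for auxin (39 genes), cytokinin (21), gibberellin and brassinosteroid (11), ethylene and jasmonate (31), transport (64), secondary metabolism (38) and redox (30) held 0. The lists were matched by gene symbol, so a 0 covers only the symbols listed, and not every named trough gene is in a list. OsCDSP32, the thioredoxin-like protein, and OsPPT2, the plastid transporter, are in none of the 16 lists. CAT-A was left out by name from the redox list and LIR1 from the photosynthesis list. The 13 genes of the phosphate starvation list also held 0 trough genes, and 1 of the 13 had a score above 0. The clock list held 0 of 14, with 5 of those 14 left out by name.

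Of the 8 genes left out by name, 7 would have been among the 150. LIR1 scored 4.83, OsPRR1 3.76, OsPRR73 2.70, GI 2.64, OsPRR95 2.34, OsPRR37 2.17 and CAT-A 1.85. OsPCL1 went the other way, with a score of -2.59, and did not meet the signal floor. These 7 met the rule that defines the 150 genes on the same arrays.

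At the lower edge of the list the scores ran on without a gap. LOC4341299, LOC4344106 and LOC4341658 were the last inside, at 1.18, 1.17 and 1.17, and LOC4324465, LOC4336825 and cbp31 the first outside, at 1.17, 1.17 and 1.16. LOC4341658 read 548 and 529.9 at 24 h against a lowest signal of 1232 elsewhere. The first gene outside, LOC4324465, read 1246 and 1358 at 24 h against a lowest signal of 3049 elsewhere.

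Other probe sets for the same genes were not used by the rule, though they come from the same RNA on the same arrays. There were 57 of these for 44 of the 150 genes, and 24 of them, for 20 genes, met the signal floor. Of those 24, 20 were below all 8 other arrays on both arrays of 24 h and 15 had a score above 1. The floor looks only at the 8 arrays outside 24 h, and 2194 of all 11074 genes that met it had a score above 0. Over all 57, with or without the floor, 30 had a score above 0. Some of the 20, such as that for CAB2R and the one for LOC4345410 that scored 1.55, differ from the one used only by the suffix of the identifier. These are not separate readings of the gene. For OsCIPK10 the 2 further probe sets that met the floor scored 2.31 and 3.04, beside 2.43 for the one used. For OsCDSP32 a second probe set scored 1.87. The probe set for CAB2R that differs only by its suffix scored 1.71. The 4 of the 24 that did not dip below all other arrays belonged to LOC4324736, LOC4325154, OsC3H35 and OsHsp18.0, with scores of -0.85, -0.08, -0.30 and -0.11. The remaining probe set for OsHsp18.0 scored 0.00, with a highest 24 h signal of 399.5 against a lowest of 400.4 elsewhere. The OsHsp18.0 probe sets other than the one used lay 0.22 and 0.36 below the mean of the other arrays at 24 h on the log2 scale, and the one for OsC3H35 that met the floor 1.10 below. Which probe set follows the gene was not tested. Probe sets that the array's design marks as possibly reading more than 1 transcript, by the suffixes _x_at and _s_at, made up 8 and 9 of the 150.

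In the gene table's order 2 pairs of trough genes were next to each other, LOC4346628 with LOC4346629 and LOC4334643 with LOC4334644. LOC4346628 read 3809 and 4313 in the control, 5330.3 and 5223 at 6 h, 401 and 454 at 24 h, 4158 and 4438 at 48 h, and 5333 and 5299.7 at 72 h, a score of 3.07 beside the 5.39 of its neighbour. LOC4334643 and LOC4334644 scored 1.95 and 1.59, and read 6566 and 7149, and 2332 and 2344, at 24 h. In the 6 h comparison LOC4334644 fell by 1.52 ± 0.05 on the log2 scale and LOC4334643 fell by 0.57 ± 0.03, so that second pair moved the same way by different amounts. Whether probes of one neighbour also read the other was not tested.

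The next question was whether the 150 genes, alike at 24 h, also moved together at the other times. Over all 10 arrays, 132 of the 150 had a Pearson r above 0.9 with the mean of the other members, which the choice of genes brings with it. Over the 8 arrays without 24 h, the median r was 0.485, with a range from -0.961 to 0.993. The same r was not taken for the other genes that met the floor, so whether 0.485 is particular to trough genes was not tested. The closest 10-array profiles were those of LOC4336490, LOC4339629 and LOC4340978, and the least close those of LOC4343600, LOC4341944 and LOC4327929, with r of 0.749, 0.754 and 0.815. The 4 group means other than 24 h spanned a median of 0.73 on the log2 scale, with over 1 in 47 genes and under 0.5 in 36.

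At 6 h, 77 of the 150 genes fell against the control and 33 rose, with 40 not called. Falls were called for 30.2% of the 11074 genes that met the signal floor and for 17.8% of all probe sets tested, and rises for 33.7% and 19.8%. Falls took 51.3% of the trough genes. The median difference was -0.25 for the 150 genes and 0.04 for all probe sets tested, and 20 genes were more than 2-fold lower and 6 more than 2-fold higher. Counts past 2-fold, here and below, were not made over all genes. Whether they are particular to trough genes was therefore not tested. Beside OsBBD1, the largest falls were those of LOC4332353 (-2.06 ± 0.04) and LOC4350698 (-1.99 ± 0.13). The largest rise was that of LOC4341944 (2.24 ± 0.10), which read 381 and 414 in the control, 1885 and 1864 at 6 h, 139 and 97.6 at 24 h, 589.8 and 557 at 48 h, and 468 and 531 at 72 h. LOC4343600 (1.56 ± 0.10) and OsBiP1 followed, and for these 3 genes the 6 h arrays stood above all others. When the probe sets of each gene were averaged, LOC4341944 differed by 1.12 and no longer passed (adjusted p = 0.0807).

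At 48 h, 72 genes were lower than in the control and 29 higher, with 49 not called. Over genes that met the floor 23.7% were called lower and 34.5% higher, and over all probe sets tested 13.3% and 20.6%. The median difference was -0.19 against 0.10 over all probe sets tested. Falls took 48.0% of the trough genes and rises 19.3%. The largest falls were those of LOC4347807 (-1.71 ± 0.09), LOC4342395 (-1.56 ± 0.05) and LOC4341299 (-1.31 ± 0.04), and the largest rises those of Adh2 (1.36 ± 0.04), LOC9268322 (1.31 ± 0.16) and LOC4349365 (0.86 ± 0.13). Without an intensity trend in the variance model 17 genes rather than 29 were called higher.

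At 72 h, 82 genes were lower than in the control and 29 higher, with 39 not called. Over genes that met the floor 25.9% were called lower and 36.7% higher, and over all probe sets tested 18.2% and 23.4%. The median difference was -0.31 against 0.17 over all probe sets tested, and 23 genes were more than 2-fold lower and 1, Adh2, more than 2-fold higher, with no such count over all genes. After OsBBD1 the largest falls were those of LOC4342395 (-2.70 ± 0.05), which read 9018 and 9351 in the control, 5773 and 5540.2 at 6 h, 478 and 389.5 at 24 h, 3119 and 3121 at 48 h, and 1427 and 1407 at 72 h, and LOC4333342 (-2.40 ± 0.05). After Adh2 the largest rises were those of LOC4341221 (0.97 ± 0.07) and LOC4349365 (0.81 ± 0.13). Centring each array on its median shifted all probe sets by -0.50 at 72 h, and 122 trough genes were then lower and 2 higher. The rise of LOC4349365 was then 0.31 and was no longer called (adjusted p = 0.0838), and the falls named here were called under every setting tried.

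**Figure D3:**
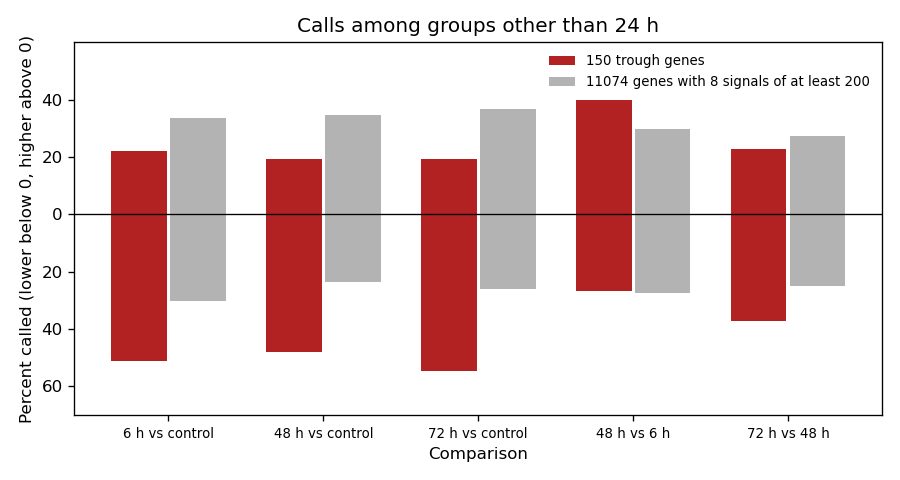
Percent of genes called higher (above 0) or lower (below 0) in 5 comparisons that leave out 24 h, for the 150 trough genes (red) and the 11074 genes that met the signal floor (grey). At 6 h, 48 h and 72 h the trough genes were called lower in 51.3%, 48.0% and 54.7% of cases, against 30.2%, 23.7% and 25.9%.

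These 3 comparisons share the 2 control arrays, so they are not separate evidence of one another. The 2 steps between low-phosphate times do not use the control. From 6 h to 48 h, 60 trough genes rose and 40 fell, with 50 not called, where 29.9% of genes that met the floor rose and 27.4% fell and 17.7% and 14.4% of all probe sets tested did so. The median difference was 0.08 against 0.04 over all probe sets tested. The largest rises were those of LOC4349365 (1.86 ± 0.13), LOC4350698 (1.59 ± 0.13) and OsBBD1 (1.497 ± 0.08), and the largest falls those of LOC4343600 (-1.76 ± 0.10), LOC4341944 (-1.71 ± 0.10) and LOC4327929 (-1.45 ± 0.07). Falls took 26.7% of the trough genes, close to the 27.4% of genes that met the floor. Of the 40 genes that fell, 23 had their highest group mean outside 24 h at 6 h, 13 in the control and 4 at 72 h. A gene that fell from 6 h to 48 h cannot be highest at 48 h, so part of this split follows from the choice. The same split was not made over all genes that met the floor, so whether it is particular to trough genes was not tested. LOC4327929 was highest at 6 h, with 2231 and 2260.3 in the control, 5170.5 and 5652 at 6 h, and 2089 and 1883 at 48 h. Without an intensity trend 66 rather than 100 genes were called in this step, 38 of them rises.

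From 48 h to 72 h, 56 trough genes fell and 34 rose, with 60 not called. Over genes that met the floor 24.9% fell and 27.5% rose, and over all probe sets tested 17.7% and 15.7%. The median difference was -0.09 against 0.06 over all probe sets tested, and 18 genes fell more than 2-fold and 1 rose as much, with no such count over all genes. OsBBD1 (-2.16 ± 0.08), LOC4333342 (-1.84 ± 0.05) and OsCIPK10 (-1.73 ± 0.07) fell most. LOC4341658 (1.12 ± 0.09), LOC4341221 (0.98 ± 0.07) and LOC4343917 (0.89 ± 0.09) rose most. After median centring, which shifted all probe sets by -0.51 in this step, 123 genes fell and 9 rose, and without an intensity trend 22 rather than 34 rose.

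Some trough genes were low at 6 h and again at 72 h. The comparison of 6 h with the control and that of 72 h with 48 h share no array, and 34 genes were called lower in both. That is 44.2% of the 77 that fell at 6 h and 60.7% of the 56 that fell from 48 h to 72 h. Among genes that met the floor the 897 lower in both were 26.8% and 32.6% of those lower in each. The 10 trough genes called higher in both were 30.3% and 29.4% of those higher in each, beside 28.5% and 34.9% among genes that met the floor. These shares are a description, and this pairing of comparisons was chosen after the values were seen. Of the 34 genes, 28 also rose from 6 h to 48 h, and 5 were among the 10 highest trough scores. That step uses the same 6 h and 48 h arrays that chose the 34, so the choice itself favours a rise. The same count was not made over the 897 genes, so whether 28 is many was not tested.

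The named genes of that set were OsBBD1, OsCIPK10, CAB2R, OsITPK3 and OsTLP3, a nuclease, a protein kinase, a light-harvesting protein, an inositol phosphate kinase and a tubby-like protein. OsCIPK10 was the clearest, since at 48 h it stood above the control by 0.35 ± 0.07, after -1.10 ± 0.07 at 6 h and before -1.38 ± 0.07 at 72 h. CAB2R did not share the return, as it fell from 6 h to 48 h by 0.27 ± 0.05. LOC4350698 read 947 and 992 in the control, 268 and 222 at 6 h, 38.2 and 21.2 at 24 h, 771 and 702 at 48 h, and 236 and 234 at 72 h, and LOC4333342 read 9666 and 9789, 2649 and 2572, 595 and 616, 6563 and 6583, and 1749.6 and 1929 in the same order. In each of these the control and 48 h arrays were all above the 6 h and 72 h arrays. The log2 3′ to 5′ ratios of actin and dap split the same way, with 3.23 to 6.86 for actin at 6 h and 72 h against 2.02 to 2.54 in the control and at 48 h, and 2.32 to 5.74 against 1.36 to 1.52 for dap. Rice Gapdh split so too, and the control transcript thr only narrowly, at 6.28 or more against 6.27 or less. The control transcripts lys and phe did not. For lys the ratio was 0.25 and 0.42 at 6 h and 0.24 and 0.35 at 48 h. For phe it was 0.42 and 0.47 at 6 h and 0.46 and 0.51 at 48 h. The part of these ratios in this pattern was not tested. The count of 34 was 66 after median centring and 25 without an intensity trend, and lay between 28 and 37 under the other settings.

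**Figure D4:**
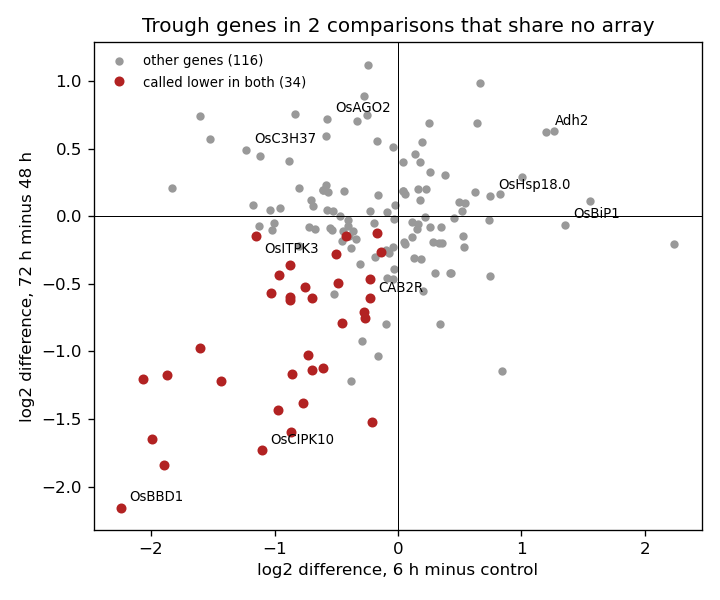
Log2 difference of each trough gene between 6 h and the control (horizontal) and between 72 h and 48 h (vertical); the 34 genes called lower in both are red. OsBBD1 lies lowest on both axes, at -2.24 and -2.16, while Adh2 is positive on both and OsBiP1 is at 1.35 on the horizontal axis.

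At the other end, 9 trough genes were called in none of the 5 comparisons, and none of the 9 has a published name. LOC4345502 was the most level, at 1931 and 1699 in the control, 1881 and 2031 at 6 h, 620.4 and 589.8 at 24 h, 1927 and 1702 at 48 h, and 1690 and 1839 at 72 h. LOC4328677 combined a level course with a deeper trough, at 678 and 648 in the control, 629 and 613 at 6 h, 110.1 and 66.7 at 24 h, 693 and 759.8 at 48 h, and 617 and 607 at 72 h. The SE of their differences was between 0.07 and 0.18 on the log2 scale. Uncalled differences were not all small: the group means outside 24 h spanned 0.45 for LOC4339138 and 0.48 for LOC4331065. By comparison, 39 of the 150 genes were called in all 5 comparisons, with OsBBD1, OsCIPK10, OsITPK3, OsTLP3, CAB2R, OsC3H37, OsHsp18.0 and Adh2 among them. The same counts were not made over all genes that met the floor. Whether 9 and 39 are few or many for such genes was therefore not tested.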

How the data were processed

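The authors deposited a linear signal intensity for each of 57381 probe sets on each of 10 arrays. MAS5 and GCOS are the programs that the submitters' processing notes name, with versions not given in the sources used here, and the deposited values have the same 2% trimmed mean on every array. RNA was extracted with TRIzol and labelled with biotin, per the labels' protocols, and groups came from the sample titles. Detection calls were not used here, so signals carry no background flag, and the number of arrays limits the precision.

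Probe sets were matched through the platform annotation (22436 with 1 gene, 95 with several, the rest with none) to the RefSeq gene table of assembly ASM3414082v1, which served for names and for the order of neighbouring genes. No sequences or coordinates are printed, so the promoter search planned for these genes was not run. The names to leave out were removed before the 150 highest scores were taken.

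Log2 was taken of the signals without an offset. Group means were fitted with limma 3.58.1 (R 4.3.3) to the 8 arrays outside 24 h (4 residual and 6.104 prior degrees of freedom, with an intensity trend) over 34355 probe sets with a mean log2 signal above the 40th percentile, 4.618. The 24 h contrast was not tested, since it chose the genes. Tests were two-sided, with Benjamini-Hochberg adjusted p under 0.05 as a call. The fit was tested on simulated data. Deviations of same-numbered arrays correlated by -0.01 to 0.02 over 10 pairs of groups, so the numbers do not pair samples. Named at 24 h were the 10 highest scores, every member with a published name, and 3 genes on each side of the list's edge; named in a comparison were the 3 largest rises and falls among called genes whose groups do not overlap. A published name was read as a symbol or synonym other than a systematic identifier, a reading set after the table was seen. The members, the 16 gene lists and the 3 marker lists were chosen with earlier results of these data known. The neighbouring genes, the genes named with all 10 signals in the paragraphs on the comparisons and the 2 level genes were picked after their values were seen.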

Additional observations from a re-analysis of the deposited data

Results flagged for a closer look

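Of the 150 genes, 16 were called in opposite directions against the control at 6 h and 48 h (11 genes) or at 48 h and 72 h (11 genes), a criterion chosen after the values were seen. The same count was not made over all genes, so whether such reversals are more common among trough genes was not tested. Given here are those of the 16 that have a published name or are named in a comparison, and the others are unnamed genes. The comparisons with the control share the control arrays. In each of the 16, the direct difference between the 2 times passed limma's test. Opposite calls against one control make that difference larger than either of them, at the same SE. The pass therefore follows from the choice, and the adjusted p values given here add no support. OsCIPK10, the calcium sensor-dependent kinase, had log2 differences from the control of -1.10 for 6 h, 0.35 for 48 h and -1.38 for 72 h. The difference of 48 h from 6 h was 1.45 ± 0.07 (SE, adjusted p = 3.86e-07) and that of 72 h from 48 h was -1.73 ± 0.07 (adjusted p = 1.08e-07). LOC4349365 differed from the control by -1.002 at 6 h and 0.86 at 48 h, a change of 1.86 ± 0.13 (adjusted p = 2.08e-06). For OsHsp18.0, the small heat shock protein, the probe set used differed from the control by 0.75 at 6 h and -0.58 at 48 h, a change of -1.33 ± 0.04 (adjusted p = 3.54e-08). LOC4341658 differed from the control by -0.46 at 48 h and 0.66 at 72 h, a change of 1.12 ± 0.09 (adjusted p = 8.38e-06).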

How the results depend on the processing

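Each comparison was repeated under 18 settings. Of 540 values for named genes in a comparison, 538 kept direction and call, 0 reversed, and the 2 lost calls are LOC4341944 at 6 h (1.12, adjusted p = 0.0807, all probe sets of a gene averaged) and LOC4349365 at 72 h (0.31, adjusted p = 0.0838, median centring). Counts moved past 1.5 times without an intensity trend, to 17 higher at 48 h, 66 called and 38 higher from 6 h to 48 h, and 22 higher from 48 h to 72 h. After median centring, which shifts all probe sets by about -0.50 at 72 h, they were 2 higher at 72 h, and 9 higher and 123 lower from 48 h to 72 h. The replicate block, from the sample numbers, gave 109 called at 6 h, 101 at 48 h, 111 at 72 h, 100 from 6 h to 48 h and 92 from 48 h to 72 h, and changed no named call. Leaving out 1 array gave 98 to 113, 91 to 101, 100 to 110, 82 to 102 and 77 to 92 in that order.

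Of the 150 genes, 144 stayed on the list after quantile normalization, 131 after median centring, 142 and 135 with the floor at 100 and 400, 127 with probe sets averaged, and 133 to 150 without 1 array. The median log2 difference of 24 h from the control, 6 h, 48 h and 72 h was -2.57, -2.33, -2.36 and -1.75 after median centring, -2.41, -2.16, -2.19 and -2.11 with log2(signal + 16), and -2.31, -2.16, -2.13 and -2.06 with probe sets averaged. That from 48 h was -2.21 after quantile normalization. Without 1 array these medians ranged from -2.49 to -2.42, -2.28 to -2.18, -2.24 to -2.16 and -2.18 to -2.13. The causes of these shifts were not tested. Dim signals limit the 13 genes under 100 on both arrays of 24 h.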
